A study of Callithrix jacchus and Rattus norvegicus and Loxodonta africana with 31 samples.

Results

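The testis of a rodent was set against that of a marsupial: 1 library of rat testis (Rattus norvegicus) and 1 of wallaby testis (Notamacropus eugenii), each from a male labelled individual 1. The male liver of each species served as background, so 4 of the 31 samples of the series make up the comparison, with 1 library per species and tissue and no replicate. A marmoset testis column, for 3 samples, was set beside it at the end, and the female rat liver served as an alternative background. The labels give no strain, age or treatment for these animals. RNA was polyadenylated, and each value is the authors' FPKM, which divides the fragments of a gene by its length and by the size of the library. Genes were matched between the tables by symbol, ignoring case, where a symbol stood once in each table. Of 10856 matched symbols, 10562 were marked autosomal in both tables and make up the comparison, which is 53.7% of the autosomal genes of the rat table and 76.8% of those of the wallaby table. Because the 2 tables were normalized separately, levels were compared as percentile ranks of log2(FPKM + 1) among the 10562 genes within each testis, where 100 is the highest gene. A rank difference is the rat percentile minus the wallaby percentile, and a gene was counted as different at 30 percentile points or more. With no replicate, no difference carries an error or a p-value, and a single gene's difference can be one animal's or one library's.

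As background, the testis makes sperm in tubules where Sertoli cells nurse the germ cells. Spermatogonia divide, spermatocytes go through meiosis with a synaptonemal complex joining paired chromosomes, and spermatids then build an acrosome and a flagellum and replace histones by transition proteins and protamines. Between the tubules, Leydig cells make androgens, and peritubular muscle-like cells wrap the tubules. Rodents and marsupials both carry out this programme, while the proteins of sperm are known to vary a good deal between mammals.

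The labels were checked against marker genes. DDX4, an RNA helicase of germ cells, stood at 87.1 FPKM in rat testis and 53.0 FPKM in wallaby testis, against 0 FPKM in rat liver and 0.0411 FPKM in wallaby liver. APOA1, the main protein of high-density lipoprotein and a product of hepatocytes, stood at 0.939 FPKM in rat testis and 3.25 FPKM in wallaby testis, against 4887 and 13547 FPKM in the livers of the same species. The one epididymis gene of the list that could be matched, ADAM7, was listed at 0 in rat testis and stood at 0.0288 FPKM in wallaby testis. Another 10 epididymis genes stood in the rat table alone. In rat testis, TEX101, also on the acrosome list, stood at 70.9 FPKM, EPPIN at 19.5 FPKM and the others at most at 2.58 FPKM. By DDX4 and APOA1, each library carried the marker of its labelled tissue. The germ cell genes PRM1 and TNP1 stood at 78.2 and 13.9 FPKM in wallaby liver, against 72536 and 9476 FPKM in wallaby testis. FPKM summed to 523930 over the rat testis table and 453380 over the wallaby testis table. The 10 highest genes held 21.1% of that sum in rat testis and 30.6% in wallaby testis, and the sequencing depth is unknown. Of the 10562 genes, 328 were listed at 0 in rat testis and 286 in wallaby testis. A listed 0 may stand for an estimate that failed: ALB, albumin, the main plasma protein made by hepatocytes, was listed at 0 in rat liver and stood at 6.08 FPKM in rat testis. Such a gene is therefore described only as listed at 0.

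Across the matched genes, the testes of rat and wallaby shared much of their rank order, with Spearman's rho of 0.653 over 10562 genes. Genes are not independent replicates, so this is a description of these libraries. The 2 livers lay closer together, at rho 0.782. Between testis and liver rho was 0.446 within the rat and 0.473 within the wallaby. In all, 992 genes (9.39% of those compared) ranked at least 30 points higher in rat testis, 1003 (9.5%) ranked at least 30 points lower, and 4320 (40.9%) lay within 10 points of each other. Together these were 1995 genes (18.9%) in testis, and the same threshold took 1071 (10.1%) in liver. The even split between higher and lower depended on which genes were ranked: with ranks over every autosomal gene of each table, 1158 genes ranked at least 30 points higher in rat testis and 679 at least 30 points lower. The differences formed a continuous range across the threshold. DACT1 lay just inside it at a difference of 30.05 points and NR0B2 just outside at 29.99 points on the rat side, and STXBP6 at -30.05 and GSR at -29.94 points on the wallaby side.

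**Figure D1:**
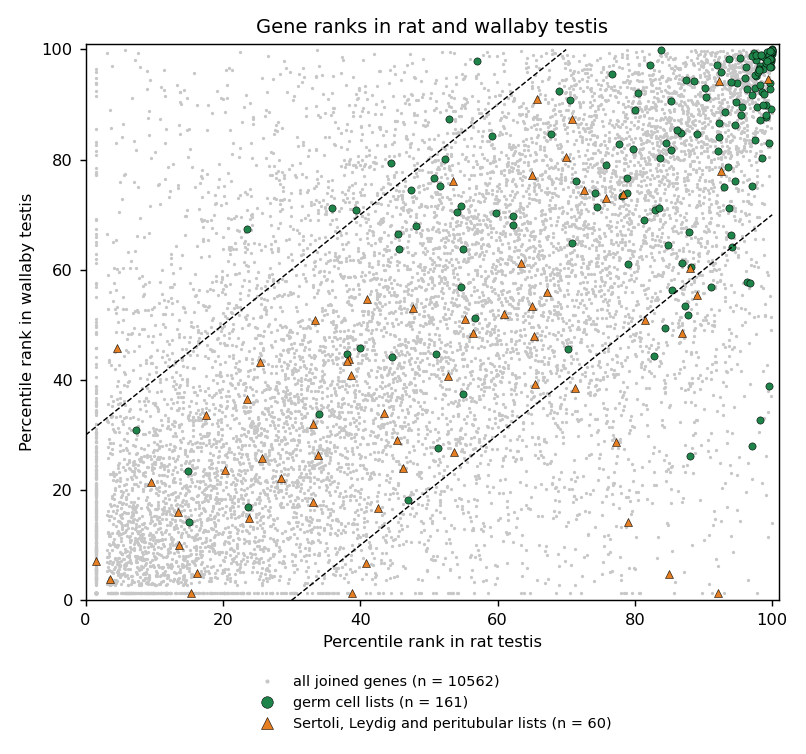
Percentile rank of each matched gene in rat testis (horizontal axis) and wallaby testis (vertical axis), with genes of the germ cell lists as green circles and of the Sertoli, Leydig and peritubular lists as orange triangles. The dashed lines mark a difference of 30 percentile points, and most green circles sit in the upper right corner, between the lines.

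Germ cell genes as a whole ranked high in both testes, with the spermatogonial list as the exception, at a median percentile of 39.0 in rat testis and 45.2 in wallaby testis. Over 9 lists of germ cell genes, 161 genes could be matched, with a median percentile of 92.0 in rat testis and 84.9 in wallaby testis. Of these, 12 ranked at least 30 points higher in rat testis and 6 at least 30 points lower, which is 11.2% of the 161 against 18.9% of all genes compared. The median size of the difference, whatever its direction, was 6.24 points over the germ cell lists and 13.1 points over all genes. Genes near the top of both testes have little room to differ in rank, and no test was made of the lists. The 60 genes of the Sertoli, Leydig and peritubular lists had a median percentile of 50.3 in rat testis and 40.8 in wallaby testis, and 10 of them ranked at least 30 points higher and 1 at least 30 points lower in the rat, or 18.3%. In a whole testis, fewer cells of a type and less RNA per cell cannot be told apart.

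The genes that pack sperm DNA were among the highest of both testes. PRM1, the protamine that packs the DNA of the sperm head, stood at 5435 FPKM in rat testis and 72536 FPKM in wallaby testis, against 0 FPKM in rat liver and 78.2 FPKM in wallaby liver. It was the highest of the matched genes in wallaby testis and lay below only OAZ3 in rat testis. PRM1 alone held 1.04% of the FPKM sum in rat testis and 16.0% of that in wallaby testis. TNP1, the transition protein that precedes the protamines, stood at 3396 FPKM in rat testis and 9476 FPKM in wallaby testis, against 0 FPKM in rat liver and 13.9 FPKM in wallaby liver. Other members of the list were less alike. CHD5, a chromatin remodeler of spermatids in the mouse, stood at 19.1 FPKM in rat testis and 2.45 FPKM in wallaby testis, a rank difference of 38.3 points. H2AFY2, a macroH2A histone, ran the other way, at 1.64 FPKM in rat testis and 9.98 FPKM in wallaby testis (-31.5 points). HIST1H2AA, a testis H2A histone, stood at 2.60 and 0.234 FPKM in rat and wallaby testis. RNF8, a ubiquitin ligase of histones, differed by -18.3 points and PSME4 by 4.54 points. PSME4, an activator of the proteasome that acts on histones in spermatids, stood at 51.6 FPKM in rat testis and 33.4 FPKM in wallaby testis. Only 7 of the 18 listed genes could be matched, since 8 were found in the rat table alone. Those included TNP2, a second transition protein, at 4016 FPKM, PRM2 at 381 FPKM and HILS1, a linker histone of spermatids, at 365 FPKM in rat testis. Their wallaby counterparts were not analysed here.

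Genes of the sperm flagellum were high in both species. Of 32 matched members, 20 (62.5%) ranked within 10 points, against 40.9% of all genes. With median percentiles of 90.7 in rat testis and 90.2 in wallaby testis, the list had little room to differ in rank. In rat testis, 5 members ranked at least 30 points higher and 0 at least 30 points lower, beside 9.39% and 9.5% of all genes. ROPN1L, a ropporin of the fibrous sheath, stood at 1460.4 FPKM in rat testis and 927 FPKM in wallaby testis, with 0.458 FPKM in rat liver and 0.487 FPKM in wallaby liver. ODF1, of the outer dense fibres, stood at 3717 FPKM in rat testis and 388 FPKM in wallaby testis. OAZ3, the antizyme of spermatids that limits polyamine synthesis, was the highest matched gene of rat testis at 9442 FPKM and stood at 645 FPKM in wallaby testis. MEIG1, needed for flagellum assembly in the mouse, stood at 495 FPKM in rat testis and 1078 FPKM in wallaby testis. All 4 were thus among the highest genes of both testes. The 5 members that differed were parts of the axoneme and of the sperm membrane. SPAG16, of the central pair of microtubules, stood at 89.7 FPKM in rat testis and 5.01 FPKM in wallaby testis (38.6 points). DNAI2, an intermediate chain of the dynein arms, stood at 28.1 and 3.63 FPKM in rat and wallaby testis (35.9 points). RSPH6A, of the radial spokes, stood at 21.4 FPKM in rat testis and 3.20 FPKM in wallaby testis. SLC9C1, the sodium-proton exchanger of sperm, stood at 41.2 FPKM in rat testis and 4.76 FPKM in wallaby testis (34.3 points). KCNU1, the potassium channel of sperm, named after its values were seen, was the fifth, at 27.0 FPKM in rat testis and 3.98 FPKM in wallaby testis. All 5 were listed at 0 in rat liver and stood at or below 0.111 FPKM in wallaby liver, so each was above liver in both animals despite the difference in rank.

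Genes of the acrosome and of fertilisation ranked slightly higher in the rat as a list. The median member stood at percentile 97.1 in rat testis and 89.9 in wallaby testis, which leaves little room to differ in rank. By any margin, 16 of 17 matched members ranked higher in the rat, beside 5313 of all 10562 genes. Of the 17, 11 (64.7%) ranked within 10 points, against 40.9% of all genes. PLCZ1, the phospholipase that starts calcium waves in the egg, stood at 82.8 FPKM in rat testis and 72.3 FPKM in wallaby testis. CLGN and CALR3, chaperones that fold sperm surface proteins, stood at 126 and 167 FPKM in rat testis and at 79.2 and 50.4 FPKM in wallaby testis. ZPBP, an acrosomal protein that binds the zona pellucida, stood at 231 FPKM in rat testis and 38.1 FPKM in wallaby testis. Of the 17, only SPACA3, an acrosomal protein related to lysozyme, passed 30 points, beside 18.9% of all genes. It stood at 153 FPKM in rat testis and 1.09 FPKM in wallaby testis (65.5 points), and was listed at 0 in both livers. ACR, the acrosin protease, stood at 169 FPKM in rat testis and 17.5 FPKM in wallaby testis (18.3 points), and TMEM95 and ZPBP2 differed by 21.1 and 18.4 points. Of the 40 listed genes, 15 stood in the rat table alone and 2 in the wallaby table alone.

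Several testis forms of energy enzymes were high and similar in both testes. Of 10 matched members, 6 ranked within 10 points, which is 60% against 40.9% of all genes. The median member stood at percentile 98.9 in rat testis and 93.7 in wallaby testis, which leaves little room to differ in rank. COX6B2, the testis form of a cytochrome c oxidase subunit, stood at 1029 FPKM in rat testis and 1559.5 FPKM in wallaby testis, against 3.54 FPKM in rat liver and 4.18 FPKM in wallaby liver. GAPDHS, the glycolytic enzyme of the sperm tail, stood at 1072 FPKM in rat testis and 667 FPKM in wallaby testis. SPATA19, a mitochondrial protein of the sperm midpiece, stood at 812 FPKM in rat testis and 684 FPKM in wallaby testis. None of the 10 matched members passed 30 points in either direction, beside 18.9% of all genes. HK1, hexokinase, stood at 383 and 63.0 FPKM in rat and wallaby testis. ACSBG2, an acyl-CoA synthetase, differed by 10.9 points and AKR1B1, aldose reductase, by 12.0 points. The largest difference was that of ADCY10, the soluble adenylyl cyclase of sperm, at 58.4 FPKM in rat testis and 7.89 FPKM in wallaby testis (27.8 points). ADCY10 stood at 0.318 FPKM in rat liver and 18.6 FPKM in wallaby liver, so that in the wallaby it was not a gene of testis over liver. ENO4, an enolase of the sperm tail, ran the other way, at 12.7 FPKM in rat testis and 82.5 FPKM in wallaby testis (-18.8 points). LDHC and PGK2, the lactate dehydrogenase and phosphoglycerate kinase of sperm, stood at 991 and 383 FPKM in rat testis and could not be matched.

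Genes that direct or shape the spermatid had the largest share of alike members among the germ cell lists. Of 29 matched members, 23 ranked within 10 points, which is 79.3% against 40.9% of all genes. Lists used by every cell that also rank high had similar shares. These were 80.8% for proteasome, 78.9% for oxidative phosphorylation and 73.9% for ribosomal protein genes. The median spermatid member stood at percentile 97.9 in rat testis and 96.4 in wallaby testis, which leaves little room to differ in rank. TXNDC8, a thioredoxin of spermatids, stood at 242 FPKM in rat testis and 661 FPKM in wallaby testis. FHL5, a coactivator of the spermatid factor CREM, stood at 307 and 333 FPKM in rat and wallaby testis. SPEM1, needed for the removal of spermatid cytoplasm in the mouse, stood at 374 FPKM in rat testis and 246 FPKM in wallaby testis. SPATA6, of the sperm neck, stood at 897 and 202 FPKM in rat and wallaby testis. The 3 of 29 members past 30 points all ranked higher in the rat, beside 18.9% of all genes past 30 points in either direction. SOX30, a transcription factor of meiosis and spermatids, stood at 99.8 FPKM in rat testis and 4.98 FPKM in wallaby testis (39.2 points). RFX4, a transcription factor, was below the threshold at 27.8 points. CAMK4, a calcium-dependent kinase, stood at 59.6 FPKM in rat testis and 7.01 FPKM in wallaby testis (30.1 points). PPP1CC, a catalytic subunit of protein phosphatase 1, stood at 305 FPKM in rat testis and 1.75 FPKM in wallaby testis (60.5 points). PPP1CC also differed in liver, at 29.2 FPKM in the rat and 2.76 FPKM in the wallaby, a liver rank difference of 48.3 points, so its difference was not one of testis alone.

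Of 12 matched heat shock and protein turnover genes of the testis, 7 ranked within 10 points, which is 58.3% against 40.9% of all genes. Their median percentiles of 93.7 in rat testis and 96.6 in wallaby testis leave little room to differ in rank. HSPA2, the chaperone of spermatocytes, stood at 435 FPKM in rat testis and 1134 FPKM in wallaby testis, and HSPA4L, another chaperone, at 163 and 287 FPKM. USP2, a deubiquitinase, stood at 259 FPKM in rat testis and 169.7 FPKM in wallaby testis. PSMA8, the proteasome subunit of meiotic cells, stood at 18.4 FPKM in rat testis and 133 FPKM in wallaby testis, with 0 in both livers. UBE2D4, a ubiquitin-conjugating enzyme, stood at 499.6 FPKM in rat testis and 113 FPKM in wallaby testis. KLHL32 was the one of 12 members past 30 points, beside 18.9% of all genes. It stood at 0.476 FPKM in rat testis and 8.35 FPKM in wallaby testis (-43.8 points). It also differed in liver, by -48.9 points. HSPH1, a heat shock protein, stood at 3.92 and 10.4 FPKM in rat and wallaby testis (-16.9 points), and TRIM42 at 20.01 and 10.2 FPKM (12.3 points).

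Meiosis genes were spread about as widely as genes in general, with 45.8% of 24 members within 10 points, against 40.9% of all genes. SYCP3, of the axes of meiotic chromosomes, stood at 132 FPKM in rat testis and 36.5 FPKM in wallaby testis, with 0 in both livers. SMC1B, the cohesin subunit of meiosis, stood at 25.8 FPKM in rat testis and 24.0 FPKM in wallaby testis, and BOLL, an RNA-binding protein of spermatocytes, at 32.0 and 23.8 FPKM. SYCE3, of the central element of the synaptonemal complex, stood at 20.6 FPKM in rat testis and 1455 FPKM in wallaby testis (-16.0 points). Of the 24 members, 2 ranked at least 30 points higher in rat testis and 3 at least 30 points lower, beside 9.39% and 9.5% of all genes. BRDT, the bromodomain protein of spermatocytes and spermatids, stood at 108 FPKM in rat testis and 0.709 FPKM in wallaby testis (69.0 points). REC8, the meiotic cohesin, stood at 29.0 FPKM in rat testis and 0.590 FPKM in wallaby testis (61.7 points). Both were below 0.5 FPKM in the livers of both species. On the wallaby side, TEX12, of the central element, stood at 4.44 FPKM in rat testis and 165 FPKM in wallaby testis (-40.9 points), while its rat liver value was 12.6 FPKM. TRIP13, an ATPase of meiotic recombination, stood at 1.30 FPKM in rat testis and 10.2 FPKM in wallaby testis (-35.3 points). The third member past the threshold on the wallaby side was MND1, of meiotic recombination, named after its values were seen, at 2.26 FPKM in rat testis and 16.5 FPKM in wallaby testis.

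Genes of the piRNA pathway, which silences transposons in germ cells, showed no member past 30 points in 20 matched, beside 18.9% of all genes. The median member stood at percentile 81.3 in rat testis and 77.4 in wallaby testis, which leaves less room to differ in rank. MAEL, of the nuage, stood at 659.7 FPKM in rat testis and 34.8 FPKM in wallaby testis, and DDX25, an RNA helicase of spermatids, at 227 and 31.0 FPKM. TDRD7, a Tudor protein, stood at 63.1 FPKM in rat testis and 26.7 FPKM in wallaby testis, but its liver levels of 10.8 FPKM in the rat and 33.1 FPKM in the wallaby kept it from being a testis gene in the wallaby. The widest differences were in both directions. HENMT1, the enzyme that methylates the ends of piRNAs, stood at 8.75 FPKM in rat testis and 2.62 FPKM in wallaby testis (24.6 points). PIWIL2, an Argonaute protein that carries piRNAs, stood at 22.2 and 7.18 FPKM in rat and wallaby testis (20.3 points), and TDRD6 differed by 21.7 points. TDRKH, which aids trimming of piRNAs, stood at 8.18 FPKM in rat testis and 50.9 FPKM in wallaby testis (-23.4 points).

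Spermatogonial genes were the germ cell list whose ranks leaned furthest to the wallaby. Of 10 matched members, 8 ranked higher in wallaby testis, with a median difference of -16.0 points against 0.142 over all genes. The median was -32.7 points when only genes of at least 1 FPKM in a testis were ranked, which left 7 members, and -10.3 points with ranks over all autosomal genes of each table. GFRA1, the receptor through which Sertoli-derived GDNF maintains stem cells, stood at 3.63 FPKM in rat testis and 29.96 FPKM in wallaby testis (-34.5 points). It was the only one of 10 members past 30 points, beside 18.9% of all genes. In liver GFRA1 stood at 5.74 FPKM in the male rat, above rat testis, and at 0.366 FPKM in the wallaby (41.0 points). It was listed at 0 in the female rat liver. DMRT1, a transcription factor of spermatogonia and Sertoli cells, stood at 3.52 FPKM in rat testis and 17.3 FPKM in wallaby testis (-27.8 points), with 0 in both livers. TAF4B, a transcription factor subunit of germ cells, stood at 2.68 FPKM in rat testis and 12.2 FPKM in wallaby testis (-27.1 points). ETV5, which acts in stem cell renewal in the mouse, stood at 3.23 FPKM in rat testis and 13.7 FPKM in wallaby testis (-25.9 points), but differed more in liver (-40.3 points). The members most alike were KIT, the receptor of differentiating spermatogonia, at 1.16 FPKM in rat testis and 1.20 FPKM in wallaby testis, and LIN28B at 0.193 and 0.140 FPKM. Another 12 listed genes stood in the rat table alone, so the list is a partial one.

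**Figure D2:**
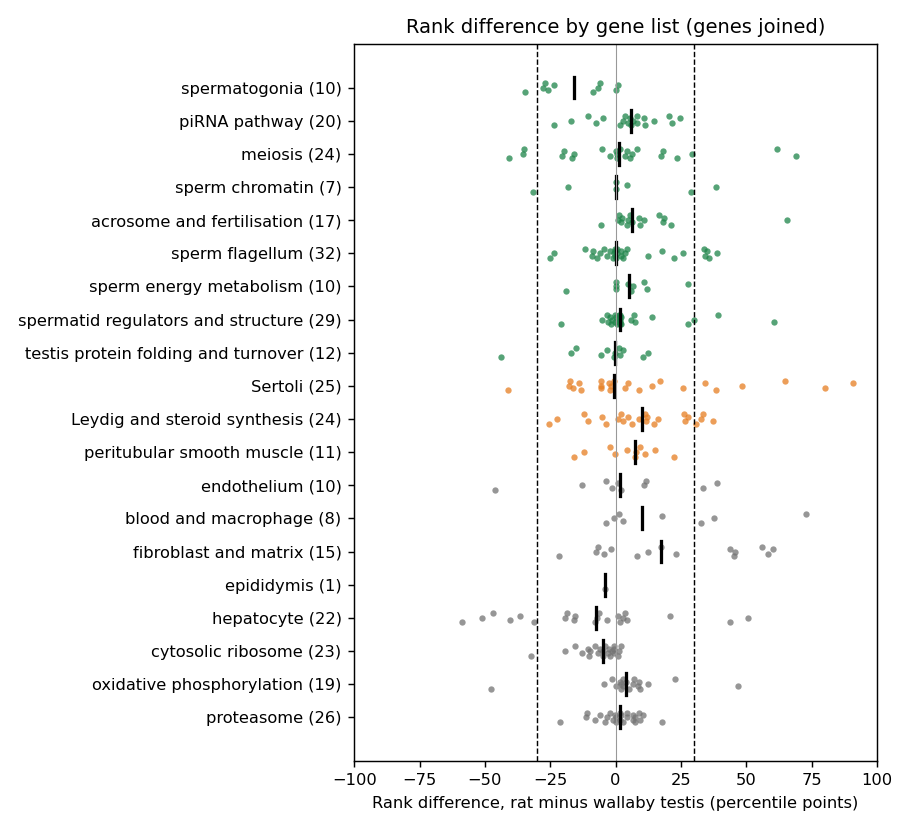
Rank difference, rat minus wallaby testis, of every matched gene in each list (points), with the median as a black bar and dashed lines at 30 points either way; the number of genes is in brackets. The spermatogonial median lies at -16.0 and the fibroblast and matrix median at 17.5 points, while the flagellum and spermatid lists centre near 0.

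Sertoli cell genes were spread widely, with rat-leaning members among the widest differences. By any margin, 12 ranked higher in rat testis and 13 in wallaby testis, and 40% lay within 10 points, against 40.9% of all genes. The median difference was -0.426 points, against 0.142 over all genes, or 4.71 points with ranks over every autosomal gene of each table. Of 25 matched members, 6 ranked at least 30 points higher in rat testis and 1 at least 30 points lower, beside 9.39% and 9.5% of all genes. CLDN11, the claudin of the junctions between Sertoli cells, was similar, at 46.4 FPKM in rat testis and 65.8 FPKM in wallaby testis with at most 0.503 FPKM in either liver. FSHR, the receptor for follicle-stimulating hormone, stood at 1.54 and 2.34 FPKM in rat and wallaby testis, and SOX9, the Sertoli transcription factor, at 1.10 and 3.49 FPKM. CLU, clusterin, and TJP1, a junction protein, ranked within 5 points of each other but stood at similar or higher levels in liver, 8.67 FPKM in rat and 16.6 FPKM in wallaby liver for TJP1. The largest difference was that of SHBG, which in rats encodes the androgen-binding protein of Sertoli cells. SHBG stood at 45.5 FPKM in rat testis and was listed at 0 in wallaby testis, while in liver it stood at 1.08 FPKM in the rat and 12.3 FPKM in the wallaby. ESPN, an actin-bundling protein of the Sertoli-spermatid junction, stood at 14.7 FPKM in rat testis and 0.142 FPKM in wallaby testis, and ran opposite in liver, at 0 FPKM in the rat and 3.86 FPKM in the wallaby. AMHR2, the receptor for anti-Müllerian hormone, stood at 13.3 FPKM in rat testis and 0.758 FPKM in wallaby testis (48.5 points). VIM, vimentin, differed by 80.2 points in testis and by 71.5 points in liver, being at or below 0.0210 FPKM in both wallaby tissues. INHA, the inhibin alpha subunit, was among the other members past the threshold, at 26.1 FPKM in rat testis and 3.05 FPKM in wallaby testis (38.4 points), with SOX8 (34.1 points). The single member past it on the wallaby side was EMX2, a homeobox gene of the gonad, at 0.0212 FPKM in rat testis and 2.65 FPKM in wallaby testis. MRO, expressed in the male gonad of the mouse, stood at 9.05 FPKM in rat testis and 29.5 FPKM in wallaby testis, against 45.5 FPKM in rat liver and 1.18 FPKM in wallaby liver.

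Of 24 matched Leydig cell and steroid genes, 4 ranked at least 30 points higher in rat testis and 0 at least 30 points lower, beside 9.39% and 9.5% of all genes, and 18 ranked higher in the rat by any margin. The median difference was 10.1 points, against 0.142 over all genes and 2.58 for the same list in liver. The enzymes that begin androgen synthesis did not pass the threshold. CYP11A1, which cleaves the side chain of cholesterol, stood at 14.0 FPKM in rat testis and 11.7 FPKM in wallaby testis (4.61 points). CYP17A1, which turns pregnenolone towards androgens, stood at 48.1 FPKM in rat testis and 14.9 FPKM in wallaby testis (14.6 points). In liver, CYP17A1 stood at 166 FPKM in the rat and was listed at 0 in the wallaby, so it was a testis gene in the wallaby alone. STAR, which moves cholesterol into mitochondria, stood at 6.64 FPKM in rat testis and 3.98 FPKM in wallaby testis. LHCGR, the receptor for luteinizing hormone, stood at 6.81 FPKM in rat testis and 1.79 FPKM in wallaby testis (26.1 points). Of the 4 members past the threshold, 3 serve the supply or transport of cholesterol. SCARB1, the lipoprotein receptor, stood at 9.25 FPKM in rat testis and 1.70 FPKM in wallaby testis (32.7 points). TSPO, of the outer mitochondrial membrane, stood at 17.5 FPKM in rat testis and 3.47 FPKM in wallaby testis (30.7 points). SQLE, squalene epoxidase of cholesterol synthesis, stood at 32.0 FPKM in rat testis and 4.44 FPKM in wallaby testis (33.6 points), and differed by 42.8 points in liver. SRD5A1, which makes dihydrotestosterone, stood at 1.58 FPKM in rat testis and was listed at 0 in wallaby testis (37.5 points), with 80.3 FPKM in rat liver and 69.0 FPKM in wallaby liver. HSD17B12, an enzyme of fatty acid elongation and steroid conversion, ran the other way, at 6.90 FPKM in rat testis and 43.7 FPKM in wallaby testis (-25.4 points). STARD3, of cholesterol transport, stood at 8.69 and 17.7 FPKM in rat and wallaby testis. INSL3, a peptide hormone of Leydig cells, stood at 212 FPKM in rat testis and could not be matched.

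Other somatic cell types were compared by their lists. None of 11 peritubular muscle genes passed 30 points, beside 18.9% of all genes. MYH11, smooth muscle myosin, stood at 4.29 FPKM in rat testis and 3.06 FPKM in wallaby testis, and TAGLN, transgelin of smooth muscle, at 7.46 and 4.57 FPKM. The widest difference among them was that of TPM2, a tropomyosin, at 2.5 FPKM in rat testis and 0.469 FPKM in wallaby testis (22.2 points). CALD1, caldesmon, differed by 15.2 points, ACTG2, smooth muscle actin, by 4.31, DES, desmin, by -2.19, LMOD1, leiomodin, by -16.1 and MYOCD, the activator of smooth muscle genes, by -11.9 points. Fibroblast and matrix genes were the list furthest to the rat side, with a median difference of 17.5 points. Of 15 members, 6 ranked at least 30 points higher in rat testis and 0 lower, beside 9.39% and 9.5% of all genes. Those 6 were fibrillar and type VI collagens and biglycan. COL1A1 and COL1A2, the chains of type I collagen, stood at 31.9 and 31.1 FPKM in rat testis and at 1.10 and 0.900 FPKM in wallaby testis. COL6A1 stood at 14.8 FPKM in rat testis and 0.248 FPKM in wallaby testis, and COL3A1 at 16.0 and 1.47 FPKM. In liver the same list had a median difference of -2.86 points, and COL1A1 stood at 3.88 FPKM in the rat and 12.5 FPKM in the wallaby. The remaining matrix genes lay within 30 points, in both directions. LUM, lumican, stood at 7.89 FPKM in rat testis and 38.6 FPKM in wallaby testis, MGP, matrix Gla protein, at 63.2 and 356 FPKM, DCN, decorin, at 54.7 and 24.8 FPKM, and SPARC, osteonectin, at 72.1 and 14.8 FPKM.

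**Figure D3:**
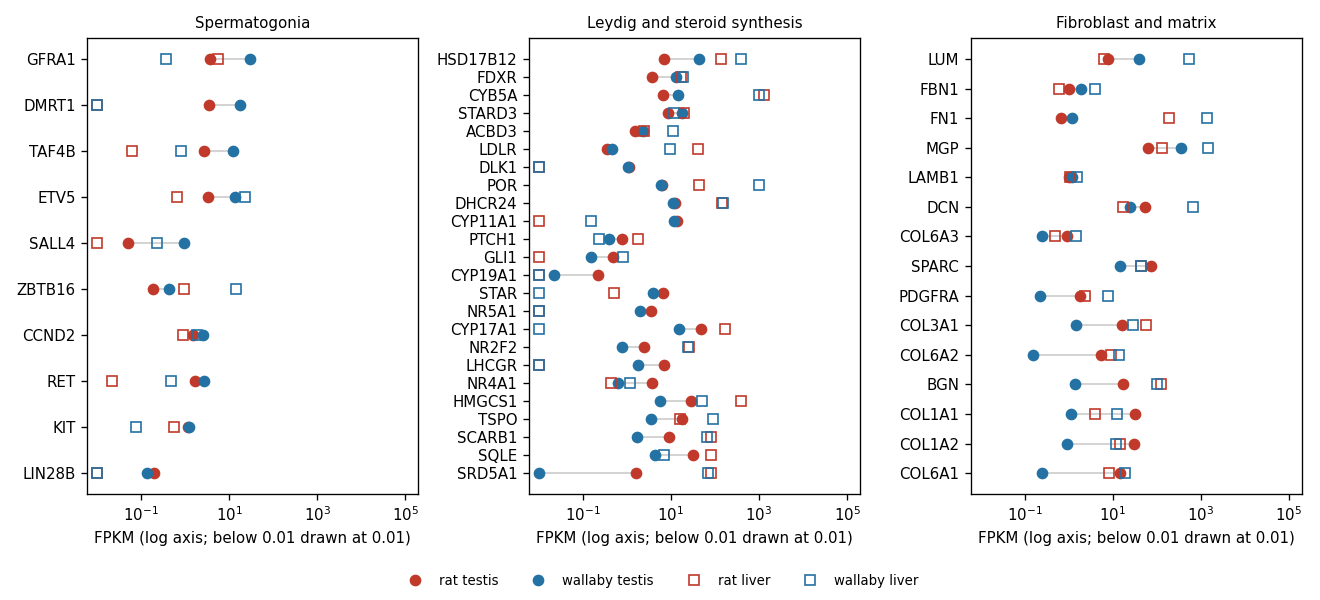
FPKM on a log axis of every matched gene of the spermatogonial, Leydig and steroid, and fibroblast and matrix lists in rat testis (filled red), wallaby testis (filled blue), rat liver (open red) and wallaby liver (open blue), ordered by rank difference within each list with the wallaby-leaning genes at the top. Collagen genes at the foot of the third panel stand above 10 FPKM in rat testis, except COL6A2 and COL6A3, and under 2 FPKM in wallaby testis.

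Endothelial genes passed the threshold in 2 of 10 on the rat side, CLDN5 and ENG, and in 1 on the wallaby side, VWF, at 0.905 FPKM in rat testis and 14.0 FPKM in wallaby testis. Of all genes, 9.39% passed it on the rat side and 9.5% on the wallaby side, which is the background for each list here. Of 8 blood and macrophage genes, 3 ranked at least 30 points higher in rat testis. AIF1, a calcium-binding protein known from macrophages, stood at 228 FPKM in rat testis and 0.583 FPKM in wallaby testis, while CD68, a defining macrophage marker, stood at 0.564 and 0.0434 FPKM and CSF1R at 1.06 and 0.873 FPKM. CD74 and TYROBP, the other members past the threshold, stood at 10.8 and 3.93 FPKM in rat testis and 2.01 and 0.205 FPKM in wallaby testis. Hepatocyte genes had a median difference of -7.55 points, or -1.59 with ranks over every autosomal gene of each table, with 6 of 22 at least 30 points lower in rat testis and 2 higher. APOC3, an apolipoprotein, was the widest of these, at 1.42 FPKM in rat testis and 89.5 FPKM in wallaby testis. In liver APOC3 stood at 23573 FPKM in the rat and 67062 FPKM in the wallaby, and where its reads in wallaby testis came from was not tested. ASS1, of arginine synthesis, was the widest on the rat side, at 30.6 FPKM in rat testis and 1.6 FPKM in wallaby testis. Of the lists used by every cell, ribosomal protein genes ranked lower in rat testis in 20 of 23, by a median of -4.75 points. Oxidative phosphorylation genes ranked higher in rat testis in 16 of 19, by a median of 3.82 points. The median over 26 proteasome genes was 1.8 points. Ribosomal and respiratory chain genes have many processed copies in mammalian genomes, so reads of single members can be split among copies. The endothelial, blood, liver and collagen genes named here were chosen after their values were seen.

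A second comparison asked which genes stood above liver in the testis of each species. A gene was counted where log2(FPKM + 1) was at least 2 higher in testis than in male liver of the same species and testis held at least 5 FPKM. Of 10562 genes, 1434 (13.6%) passed in the rat and 1000 (9.47%) in the wallaby, and 559 (5.29%) passed in both. The shared genes were 39.0% of the rat set and 55.9% of the wallaby set. Of the 559 shared genes, 384 (68.7%) ranked within 10 points of each other in the 2 testes, against 40.9% of all genes. In the rat, 10 (1.79%) ranked at least 30 points higher and 3 (0.537%) at least 30 points lower, against 9.39% and 9.5% of all genes. Shared genes had to hold at least 5 FPKM in both testes. This choice leaves them less room to differ in rank, so the counts do not measure how alike testis genes are. The germ cell lists held 97 of the shared genes among their 161 matched members, and the Sertoli, Leydig and peritubular lists held 2 among 60. Those 2 were CLDN11 and CYP11A1.

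The shared genes highest in both testes were PRM1, TNP1, COX6B2, MEIG1, ROPN1L, HSPA2, SPATA19 and GAPDHS, described above, together with ASRGL1 and TSACC. ASRGL1, an enzyme that cleaves asparagine and isoaspartyl peptides, stood at 472 FPKM in rat testis and 1442 FPKM in wallaby testis, against 24.7 FPKM in rat liver and 82.8 FPKM in wallaby liver. TSACC, a co-chaperone of a testis kinase, stood at 376 FPKM in rat testis and 1077 FPKM in wallaby testis, against 0.480 and 4.90 FPKM in the livers. Of the 13 shared genes whose ranks differed by 30 points or more, the 3 on the wallaby side were MBOAT2, a membrane acyltransferase, TRIM7, a ubiquitin ligase, and ETV2. ETV2, an ETS transcription factor known from endothelial development in the mouse, had the highest level of them, at 7.85 FPKM in rat testis and 455 FPKM in wallaby testis (-31.1 points), with at most 0.570 FPKM in either liver. SLC30A3, a zinc transporter, stood at 117 FPKM in rat testis and 5.86 FPKM in wallaby testis (36.6 points). These genes of the 13 were chosen after their values were seen.

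**Figure D4:**
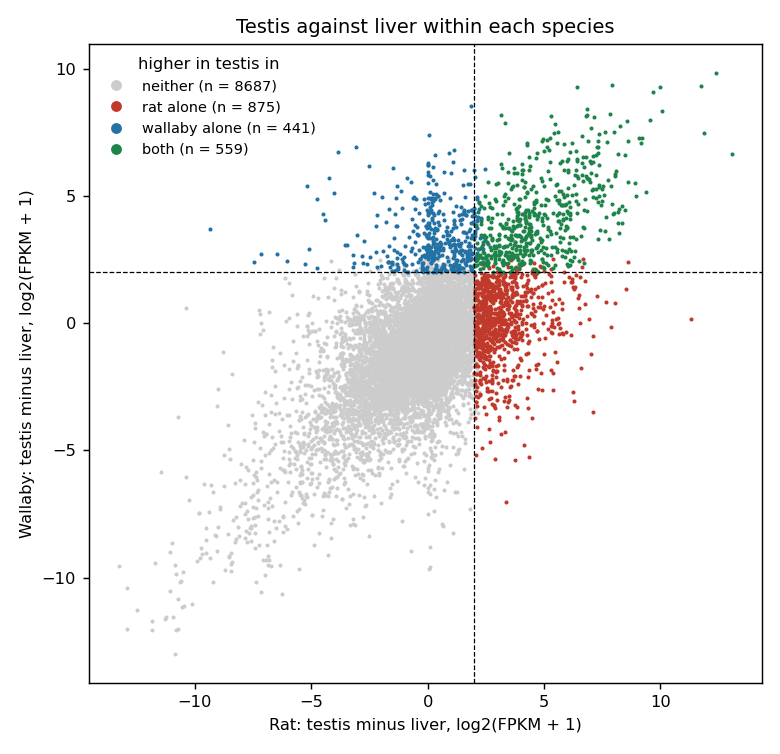
Testis minus male liver in log2(FPKM + 1) for each matched gene in the rat (horizontal axis) and the wallaby (vertical axis), coloured by the species in which it passed 2 log2 and 5 FPKM, with dashed lines at 2. The 559 genes passing in both reach to the upper right, and 875 pass in the rat alone against 441 in the wallaby alone.

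Another 875 genes passed in the rat alone and 441 in the wallaby alone. Many of these were near the line in the other species: 250 of the 875 were at least 1 log2 higher in wallaby testis than in wallaby liver, and 159 of the 441 were so in the rat. Testis was at least 1 log2 below liver in the other species for 175 of the 875 and 70 of the 441. The median gene stood at 3.11 FPKM in rat testis, against 2.85 FPKM in rat liver, and at 3.30 FPKM in wallaby testis, against 6.81 FPKM in wallaby liver. The part of this in the smaller wallaby set was not tested. With a difference of 3 log2 in place of 2, 368 genes passed in both species.

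Single genes differed over nearly the whole range of ranks. Among genes of at least 10 FPKM in rat testis and above 0 in wallaby testis, the widest differences to the rat side began with BEST1, a chloride channel, at 91.2 FPKM in rat testis and 0.0123 FPKM in wallaby testis, with 0 in both livers. BSPRY, a B-box protein, stood at 301 FPKM in rat testis and 0.0892 FPKM in wallaby testis. GSG1, a protein of the germ cell endoplasmic reticulum, was the fifth highest matched gene of rat testis at 2521 FPKM and stood at 0.135 FPKM in wallaby testis, with 0 in both livers. COMP, a cartilage matrix protein, stood at 39.5 FPKM in rat testis and 0.00670 FPKM in wallaby testis. In the rat all 4 stood far above liver, where BSPRY had 1.34 FPKM and the others at most 0.301 FPKM. In wallaby liver BSPRY had 1.52 FPKM and the others were listed at 0. CORO2A, an actin-binding coronin, USP35, a deubiquitinase, and EHBP1L1, of membrane traffic, stood at 58.3, 24.1 and 26.5 FPKM in rat testis and at most 0.0923 FPKM in wallaby testis. TMEM184A stood at 61.1 FPKM in rat testis and 0.0552 FPKM in wallaby testis, but at 9.12 FPKM in rat liver and 17.6 FPKM in wallaby liver. SEC61A1, the core of the protein translocation channel that every secreting cell needs, stood at 45.2 FPKM in rat testis and 0.0322 FPKM in wallaby testis, and at 238 FPKM in rat liver and 0 in wallaby liver. MIF4GD, of histone mRNA translation, likewise differed by 51.5 points in liver. SEC61A1 and MIF4GD were thus listed near 0 or low in both wallaby tissues. Whether such a gene, VIM among them, is low in the animal or poorly represented by its gene model in the table was not tested.

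On the wallaby side, the widest difference was that of GSTM3, a glutathione transferase, at 0.0003 FPKM in rat testis and 396 FPKM in wallaby testis, with 5.84 FPKM in rat liver and 1914 FPKM in wallaby liver. It belongs to a family of close copies, and a shared symbol need not mark the same copy in both species. APOA4, a lipid-binding apolipoprotein, stood at 0.0344 FPKM in rat testis and 1183 FPKM in wallaby testis, while in liver it stood at 679 FPKM in the rat and 89.9 FPKM in the wallaby. KRT18, the keratin of simple epithelia, stood at 0.0540 FPKM in rat testis and 407 FPKM in wallaby testis, and at 183 and 76.9 FPKM in the livers of rat and wallaby. APOA4 and KRT18 were therefore liver genes in the rat and higher in testis than in liver in the wallaby. MAB21L3 stood at 0.0158 FPKM in rat testis and 121 FPKM in wallaby testis, and ACSM4, a medium-chain acyl-CoA synthetase, at 0.0491 and 181 FPKM. PGR, the progesterone receptor, stood at 0.0121 FPKM in rat testis and 34.3 FPKM in wallaby testis, with at most 0.341 FPKM in either liver. PPP2R2C, a phosphatase subunit, STMN3, a stathmin that binds tubulin, and IQGAP3, a scaffold of dividing cells, reached 95.8, 67.6 and 98.3 FPKM in wallaby testis, with at most 0.114 FPKM in rat testis. ATP5H, a subunit of ATP synthase that every tissue uses, stood at 0.0574 FPKM in rat testis and 114 FPKM in wallaby testis, and at 0.115 FPKM in rat liver and 414 FPKM in wallaby liver, so it was listed near 0 in both rat tissues, with the same limit.

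**Figure D5:**
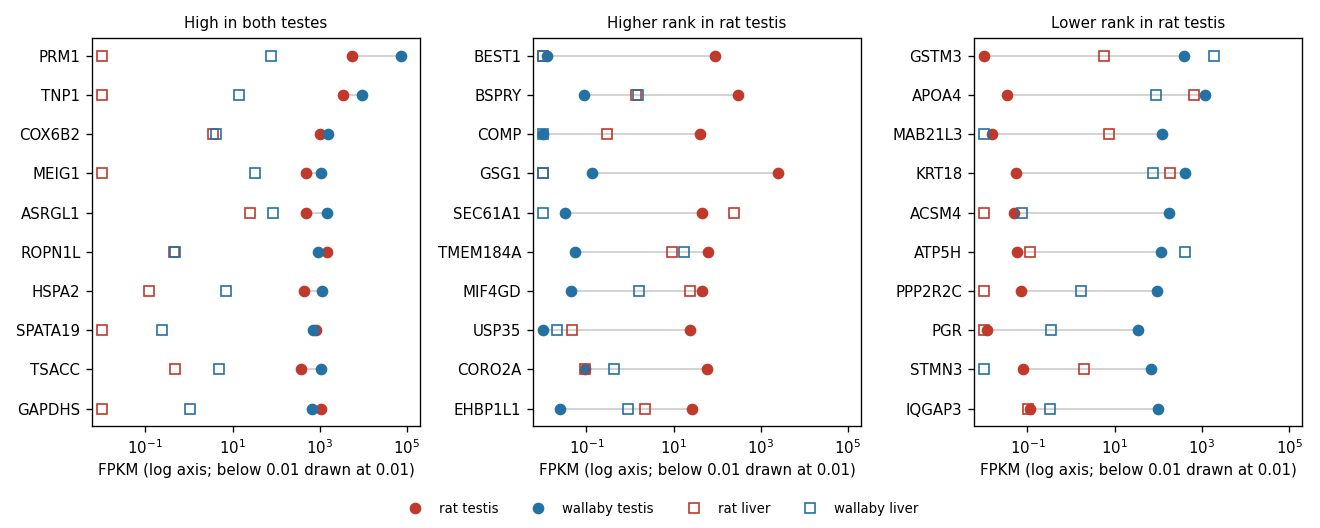
FPKM on a log axis of the 10 genes highest in both testes (left), the 10 with the widest rank difference towards the rat (middle) and the 10 towards the wallaby (right), in rat testis (filled red), wallaby testis (filled blue), rat liver (open red) and wallaby liver (open blue). In the left panel both testes lie above both livers for every gene. In the other panels the 2 testes lie far apart, with the lower testis towards the left end of the axis.

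Liver was used to see how far a difference belonged to testis. Of the 992 genes at least 30 points higher in rat testis, 159 (16.0%) were also at least 30 points higher in rat liver. Another 34 (3.43%) were at least 30 points lower there. Of the 1003 lower in rat testis, 109 (10.9%) were lower in rat liver as well and 51 (5.08%) were higher. Over all matched genes, 5.33% were at least 30 points higher in rat liver and 4.81% at least 30 points lower. A liver difference in the same direction was thus more frequent among these genes than over all genes. Most genes past the threshold in testis were not past it in the same direction in liver, although 266 of the 992 were under 1 FPKM in both wallaby tissues and 358 of the 1003 were under 1 FPKM in both rat tissues. Genes so low in both wallaby tissues were 26.8% of the 992, against 16.0% of all matched genes. Genes so low in both rat tissues were 35.7% of the 1003, against 21.2% of all matched genes. For such a gene the liver gives no check of its gene model.

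Some testis genes of one species were listed at 0 in the testis of the other. On the rat side the highest were HEMGN, hemogen, a nuclear protein of blood and germ cells, at 135 FPKM in rat testis, CD164L2 at 50.3 FPKM, SHBG, PLCD4, a phospholipase C, at 41.6 FPKM, and NECAB3, a calcium-binding protein, at 35.0 FPKM. Each but SHBG was at or below 0.425 FPKM in both livers. On the wallaby side they were FUT9, a fucosyltransferase, at 105 FPKM in wallaby testis, GNG4, a G protein subunit, at 74.5 FPKM, GPR111, an adhesion receptor, at 63.4 FPKM, MSMP at 61.2 FPKM and NIPAL1, a magnesium transporter, at 51.0 FPKM. NIPAL1 stood at 17.8 FPKM in rat liver, so its rat gene model does receive reads. No fold between rat and wallaby testis is given for any of these genes.

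The marmoset testis gave a comparison that the rat and wallaby values had not used. It is 1 column for 3 labelled samples, taken as the authors' value with no SD. Over 8789 genes matched in all 3 tables, rho was 0.649 between rat and wallaby testis, 0.497 between rat and marmoset testis and 0.463 between wallaby and marmoset testis. Of 1672 genes at least 30 points apart between rat and wallaby, the marmoset rank lay nearer the rat in 906, or 54.2%. No interval is given, since genes of 1 library are not independent. Over all 8789 genes the share nearer the rat was 50.8%. Among the 1672 it was 62.5% for genes lower in the rat and 45.9% for genes higher in the rat. The marmoset testis was itself low in the shared testis genes, with a median percentile of 31.5 over 466 of them, against 90.8 in rat testis and 88.9 in wallaby testis. Over 23 genes of the spermatid list its median percentile was 33.0, against 97.7 in rat testis and 95.9 in wallaby testis. TNP1 stood at 0.169 FPKM and GAPDHS at 0.279 FPKM in it. The part of these low marmoset ranks in the shares above was not tested. The share nearer the rat was 50.8% when only genes of at least 1 FPKM in a tissue of each species were ranked, a filter chosen after seeing the data.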

How the data were processed

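Polyadenylated RNA of rat and wallaby testis and male liver was analysed, 1 library each. The tools named by the submitters' processing notes are TopHat 1.4.0 and Cufflinks 2.0.0. Genome builds, annotations and any scaling across tissues are not given in those sources. The values are FPKM as deposited by the authors in 1 table per species. Another 24 columns that hold per-sample values were left unused. The sequencing depth is unknown, so no counting interval can be given for a level.

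Genes were joined by symbol (a join that can pair genes that are not one-to-one counterparts), kept where marked autosomal in both tables, and ranked in Python 3.11.15 with pandas 2.3.3 and SciPy 1.17.1. Ties took their mean rank. The pseudocount of 1 FPKM does not alter a rank. Testis over liver required a log2(FPKM + 1) difference of 2, which understates changes of low genes, and 5 FPKM. Marmoset symbols came from its table (5468) or a name table (3754). The rank step was checked on simulated data. The 20 gene lists held 587 distinct genes, of which 345 could be matched. Members and lists were chosen with earlier results of these data known.

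Genes were named by rule: in each germ cell, Sertoli, Leydig and peritubular list the 4 with the highest mean percentile and the 4 with the widest difference; the 10 shared testis genes highest in both testes; the 10 widest differences each way at 10 FPKM or more; and the 5 highest testis genes listed at 0 in the other testis. Genes named outside this rule were chosen after their values were seen. Alternatives covered the genes ranked, filters, thresholds, pseudocount and the female rat liver. No protein or nucleotide sequence of these genes was used here.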

Additional observations from a re-analysis of the deposited data

Results flagged for a closer look

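The genes named above include 8 whose testis-liver difference ran opposite ways in the 2 species by at least 2 log2 each, on the log2(FPKM + 1) scale. With 1 library per species and tissue, none of these differences between the species was tested. On the rat side, SHBG was 4.48 higher in testis than in liver in the rat and -3.73 in the wallaby, ESPN 3.98 in the rat and -2.09 in the wallaby, and TMEM184A 2.62 in the rat and -4.14 in the wallaby. On the wallaby side, the testis minus liver value was -9.36 in the rat and 3.70 in the wallaby for APOA4, -7.45 and 2.39 for KRT18 in the same order of species, and -3.07 in the rat and 6.93 in the wallaby for MAB21L3. NIPAL1 stood at -4.23 in the rat and 5.70 in the wallaby, and MRO at -2.21 in the rat and 3.81 in the wallaby. Over all matched genes, 89 genes stood at least 2 log2 higher in testis than liver in the rat and at least 2 lower in the wallaby, and 30 the reverse, with at least 5 FPKM in the higher tissue of each species.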

How the results depend on the processing

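No paired analysis was possible because each species and tissue had 1 library. With a threshold of 20 points, 1792 genes ranked higher and 1774 lower in rat testis; with 40 points, 534 and 535. With a testis-liver difference of 3 log2, 368 genes passed in both species, 530 in the rat alone and 273 in the wallaby alone. All other alternatives for these counts stayed within 1.5 times, although ranks over every autosomal gene of each table gave 1158 higher and 679 lower. Of 97 alternative list medians, 87 moved by less than 5 points. With ranks over every autosomal gene of each table, the median became -10.3 for spermatogonia, 4.71 for Sertoli, 8.39 for endothelium, 17.4 for blood and macrophage and -1.59 for hepatocyte genes. With at least 1 FPKM in a testis it became -32.7 for spermatogonia, 8.22 for endothelium, 19.9 for blood and macrophage and -20.3 for hepatocyte genes; members of the last 3 lists can pass this filter through the testis where they are high, which widens their medians by construction. Under a filter chosen after seeing the data, at least 1 FPKM in a tissue of each species, which left 7 spermatogonial genes, the spermatogonial median was -33.6, and those of endothelial, blood and macrophage, and hepatocyte genes were -1.07, 6.89 and -6.55. The share of differing genes with the marmoset nearer the rat was 58.9% with ranks over whole tables and 50.8% under that filter. The cause was not tested. With 1 library per group and unknown depth, these values carry no replicate error.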

Other observations

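Among the highest matched genes of wallaby testis were several of small mitochondrial and cytoskeletal proteins. DYNLL2, a dynein light chain, stood at 113 FPKM in rat testis and 16082 FPKM in wallaby testis, and COX7C, a cytochrome c oxidase subunit, at 77.4 and 4163 FPKM. MRPS12, of the mitochondrial ribosome, stood at 7.74 FPKM in rat testis and 2167 FPKM in wallaby testis, and PYCRL, of proline synthesis, at 1.12 and 2433 FPKM. In liver, DYNLL2, COX7C and MRPS12 stood at 33.8, 265 and 134 FPKM in the rat and at 2676, 32618 and 629 FPKM in the wallaby. TUBA8, an alpha-tubulin, stood far above liver in both species, at 135 FPKM in rat testis and 1846 FPKM in wallaby testis, against 0 FPKM in rat liver and 21.9 FPKM in wallaby liver. SPA17, a sperm surface protein, was among the highest of rat testis, at 1381 FPKM in rat testis and 386 FPKM in wallaby testis.

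The wallaby liver held values of the most abundant testis genes that were small beside those in testis, but these did not all rank low within liver. Among the matched genes of wallaby liver, PRM1 stood at percentile 89.3, SYCE3 at 83.9, MEIG1 at 79.0 and TNP1 at 64.0. By value, PRM1 in wallaby liver was 0.108% and TNP1 0.147% of its level in wallaby testis, while MEIG1 was 3.02% and SYCE3 3.17%. Over the 23 rat testis genes of at least 500 FPKM the median liver value was 0.0314% of that in testis, and 10 of them were listed at 0 in liver. Over the 35 such genes of the wallaby it was 1.71%, and 2 were listed at 0. These genes were chosen after their values were seen, and where these reads came from was not tested.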
